A study of Mus musculus with 6 samples.

Results

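The cells described here are dermomyotome-like barcodes of the E10.5 library, a droplet single-cell RNA library of XX gonad tissue from ICR mouse embryos at E10.5 (embryonic day). A droplet barcode was kept when it held at least 500 detected genes and at most 10% UMIs (unique molecular identifiers, each standing for 1 captured RNA molecule) from mitochondrial genes. Among kept barcodes, those with at least 1 UMI in at least 2 of the 5 marker genes Dmrt2, Pax3, En1, Tcf15 and Wnt16, and with 0 UMIs of Pax1, Pax9, Mylpf and Sox2, were chosen. This gave 603 of 6259 kept barcodes, or 9.63% (exact 95% interval 8.91 to 10.4%). Values of these 9 genes therefore chose the cells and are given as a description only.

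The study profiled XX gonads of ICR embryos at E10.5, E11.5, E12.5, E13.5 and E14.5, and gonadal somatic cells grown from embryonic stem cells of a 129svj x C57BL/6J background and taken at culture day 6. Each of the 6 groups was 1 library, and how many embryos went into a library is not given in the sources used here. With 1 library per group no test between groups was possible, and every interval below covers counting error only.

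The dermomyotome is the epithelial sheet that remains dorsally in a somite after the ventral part has dispersed as sclerotome, the source of vertebrae and ribs. Its edges release cells into the myotome, the first skeletal muscle of the trunk, and at limb levels some leave as migrating muscle precursors. Its central part gives rise to dorsal dermis and, later, to muscle progenitors. Pax3 and Pax7 are paired-box transcription factors of these progenitors, Dmrt2 is a DM-domain factor of the dermomyotome, Tcf15 (paraxis) is a basic helix-loop-helix factor needed for somites to stay epithelial, En1 is a homeobox factor of the central dermomyotome, and Wnt16 encodes a secreted Wnt ligand.

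Among the 603 barcodes, Tcf15 was detected in 585 (97.0%), Pax3 in 393 (65.2%), Dmrt2 in 359 (59.5%), Wnt16 in 194 (32.2%) and En1 in 165 (27.4%). Exactly 2 of the 5 markers were seen in 285 barcodes, 3 in 178, 4 in 108 and all 5 in 32. Pax3 with Tcf15 was the most frequent pair, present in 381 barcodes, followed by Dmrt2 with Tcf15 in 344 and Dmrt2 with Pax3 in 212. Tcf15 was also the least restricted marker: only 31.2% of the 1876 kept barcodes with a Tcf15 UMI were chosen, against 71.8% of the 500 with Dmrt2, and 49.5% of the 188 endothelial barcodes held it. Of the 285 barcodes with exactly 2 markers, 57 rested on a single UMI of each.

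The 250 bases before the annotated transcript start are shown for 4 genes: Dmrt2 and Wnt16, which chose the cells, and Myf5 and Nkd2, which varied among them. Sequences and coordinates are those of RefSeq on GRCm38.p6, each written 5′ to 3′ on the strand of its gene, and capitals mark an E-box, the letters CANNTG bound by basic helix-loop-helix factors.
Dmrt2, plus strand, chr19:25672161-25672410: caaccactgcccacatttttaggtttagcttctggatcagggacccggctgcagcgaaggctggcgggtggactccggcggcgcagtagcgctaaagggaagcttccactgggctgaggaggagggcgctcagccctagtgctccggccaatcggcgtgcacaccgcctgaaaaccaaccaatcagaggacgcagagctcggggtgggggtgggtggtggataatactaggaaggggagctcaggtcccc
Wnt16, plus strand, chr6:22287977-22288226: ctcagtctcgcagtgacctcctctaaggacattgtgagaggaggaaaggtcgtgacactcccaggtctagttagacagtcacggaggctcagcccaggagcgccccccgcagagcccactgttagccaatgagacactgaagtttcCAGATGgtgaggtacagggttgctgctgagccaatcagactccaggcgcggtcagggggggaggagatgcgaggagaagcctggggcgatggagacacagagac
Myf5, minus strand, chr10:107486135-107486384: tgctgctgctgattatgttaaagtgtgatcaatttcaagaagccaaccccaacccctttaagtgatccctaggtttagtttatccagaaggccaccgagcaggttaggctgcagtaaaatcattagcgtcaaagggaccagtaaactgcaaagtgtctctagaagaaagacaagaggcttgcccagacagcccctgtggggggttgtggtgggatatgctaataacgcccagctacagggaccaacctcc
Nkd2, minus strand, chr13:73847632-73847881: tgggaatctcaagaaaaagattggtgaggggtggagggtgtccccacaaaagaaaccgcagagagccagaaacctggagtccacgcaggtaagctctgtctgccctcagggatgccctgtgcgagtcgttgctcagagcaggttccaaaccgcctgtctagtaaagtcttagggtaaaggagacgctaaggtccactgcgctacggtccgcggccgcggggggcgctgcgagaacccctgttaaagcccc
An E-box stood in the Wnt16 window and in none of the other 3. The same letters, which read alike on both strands, were in 66.2% of all 32851 promoter windows of that length, and in 50% of the 42 windows found for 31 of the 41 genes that were at least 2-fold higher in these cells (described below). A TCF/LEF motif (CTTTGAT, both strands) was in 3.21% of all windows and in 4.76% of those 42. Windows could hold more than 1 motif, overlapping ones included, and a match says only that the letters are there.

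The rule had 2 edges. Just inside the marker threshold, the 285 barcodes with exactly 2 markers had 246 CPM of Meox1 (UMIs of a gene scaled to a total of 1000000 in the summed barcodes) and 47.8 CPM of Myf5. Just outside it, the 911 barcodes with exactly 1 marker had 111 and 6.96 CPM of Meox1 and Myf5. A further 207 barcodes held 2 or more markers but failed the zero criterion, 98 of them through Pax1, 98 through Mylpf, 41 through Pax9 and 14 through Sox2. Their levels were 305 CPM of Meox1 and 46.6 CPM of Myf5, so barcodes outside the zero criterion carried these somite genes at similar levels.

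Chosen barcodes had a median of 7714 UMIs (1527 to 24645) and 2532 genes, against 6382 UMIs and 2286 genes in the 5656 other kept barcodes. Detection of a marker depends on depth, so the rule was repeated after thinning every barcode to 3000 UMIs, which chose 362 barcodes, 331 of them among the 603. Scrublet's automatic doublet call marked 1 barcode of the library (0.0160%), too few to be believed, so no doublets were removed. The 315 highest doublet scores held 40 of the chosen barcodes, 6.63% of them against 4.86% of the others. Few barcode sequences were shared between libraries, from 19 to 72 for pairs with E10.5, and 1 to 6 of the chosen ones were among them.

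In the other 5 libraries the same rule chose few barcodes. It chose 4 of 2720 kept barcodes at E11.5, 0 of 3249 at E12.5, 1 of 4566 at E13.5, 0 of 4308 at E14.5 and 2 of 7519 in the culture. With 3 barcodes as the limit that a count of 0 allows, the share was at most 0.0923% at E12.5 and 0.0696% at E14.5. None of the 7 barcodes chosen outside E10.5 held a UMI of Pax3 or Pax7. Over all kept barcodes Pax3 stood at 30.3 CPM at E10.5, at 0.0487 CPM at E11.5, 0.125 at E12.5 and 0.0386 at E13.5, and was not detected at E14.5 or in the culture. Tcf15 stood at 114 CPM at E10.5 and between 10.3 and 14.2 CPM at E11.5 to E14.5. Tissue taken at dissection and embryonic age cannot be told apart here.

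The label was checked against regulators outside the rule, with mixed values. Meox1, a homeobox gene of the early somite, was detected in 434 of 603 barcodes (72.0%, 68.2 to 75.5%), with a median of 2 UMIs and a highest value of 13. Myf5, the first myogenic determination factor to come on, was detected in 117 (19.4%), with 0 to 11 UMIs. Both were seen in 24.6% and 3.04% of the other kept barcodes, but Meox1 was in 77.3% of the sclerotome barcodes and Myf5 in 44.7% of the muscle barcodes, groups chosen by markers of their own. Some regulators followed throughout were no more frequent or no higher than in the other kept barcodes. Mef2c, a myogenic cofactor, was at 6.14 against 58.0 CPM. It was at 96.2 CPM in the barcodes with 2 or more markers that failed the zero criterion. A Mef2c UMI was seen in 76.7% of muscle and 69.7% of endothelial barcodes, which are part of that reference. Dact1, a modulator of Wnt signalling, was seen in 10.3% against 11.3%, Twist2 in 25.5% in both and the ligand Wnt11 in 0.663% against 0.849%. The summed level of the somite and premyogenic regulators outside the rule was 555 CPM in the chosen barcodes, 638 in sclerotome, 418 in muscle and 225 in all others.

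Erythroid barcodes, in which these genes should be absent, served as the background of free RNA. Their median depth was higher, at 13200.5 UMIs, but the erythroid list took 502819 CPM of it, which left less for other genes. Meox1 was seen in 5.08% of the 118 erythroid barcodes and Myf5 in 0%. After thinning to 3000 UMIs, which left out 14 chosen barcodes, the shares in the chosen barcodes were 50.3% for Meox1 and 10.9% for Myf5, and in erythroid barcodes 0.855% and 0%. Pax7 was detected in 61 chosen barcodes (10.1%, 4.75% thinned) and in 0 erythroid ones, and Sim1, a factor of the lateral dermomyotome, in 62 (10.3%, 3.40% thinned) against 0. The shares of Meox1, Myf5 and Pax7 lay above the erythroid ones before and after thinning, whereas for Sim1 the thinned intervals (2.09 to 5.20% against 0 to 3.10%) overlapped. In the 188 endothelial barcodes Meox1 was seen in 9.04% (3.31% thinned), and Myf5, Pax7 and Sim1 in 0.

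**Figure D1:**
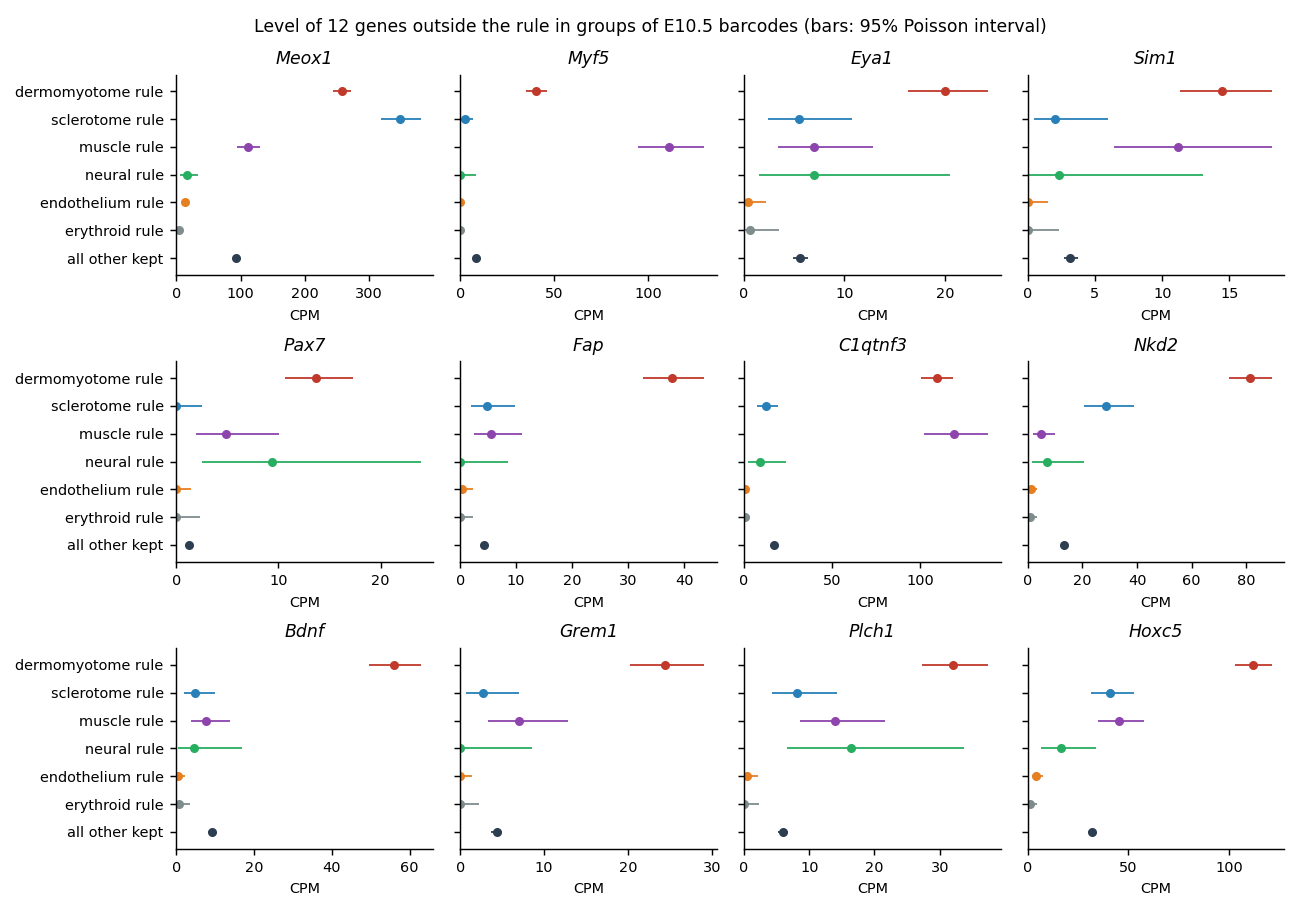
Level in CPM (x axis, linear, from 0) of 12 genes that the rule did not use, in the summed UMIs of groups of E10.5 barcodes chosen by marker rules (y axis); points are levels and bars exact 95% Poisson intervals. Fap, Nkd2, Bdnf, Grem1, Plch1, Eya1 and Hoxc5 stood highest in the dermomyotome rule, Meox1 in the sclerotome rule, and Myf5 in the muscle rule.

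Compared with all other kept barcodes, few genes stood out. Among 5553 genes with at least 20 CPM in either sum, 41 were at least 2-fold higher in the chosen barcodes (0.738%) and 168 at least 2-fold lower (3.03%). A gene under 20 CPM in the chosen barcodes could only be called lower, and one under 20 CPM in the others only higher. At 4-fold the counts were 11 higher (0.198%) and 68 lower (1.22%), and the median log2 ratio of all tested genes was 0.01. In the list of somite and premyogenic regulators, 6 of 17 genes reached 20 CPM, 3 were at least 2-fold higher, Eya1 and Meox1 among them, and 0 lower, with a median log2 ratio of 1.23.

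Eya1, a transcriptional coactivator of the early muscle programme, stood at a ratio of 3.56 (2.79 to 4.52), with 101 UMIs in the chosen barcodes. Its level lay at the edge of the 20 CPM minimum, and its ratio was 1.82 (1.25 to 2.59) in barcodes with at least 3 markers. Meox1 stood at 257 against 92.3 CPM (ratio 2.79, 2.61 to 2.97). Meox2, more typical of sclerotome and limb muscle, was at 33.7 against 22.8 CPM, under 2-fold. Members below 20 CPM are given as values: Pax7 had 13.7 against 1.24 CPM and Lbx1 3.77 against 0.363, while the ratio was 4.56 for Sim1 and 2.73 for Eya2. Pax7 rested on 69 UMIs and Lbx1 on 19. With at least 3 markers the ratio of Lbx1 turned to 0.470 (0.0116 to 2.81) and that of Eya2 was 1.44 (0.835 to 2.33).

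Outside that list, Fap, a membrane serine protease, had the largest ratio, with 37.8 against 4.31 CPM (ratio 8.78, 7.12 to 10.8). C1qtnf3, a secreted C1q-related protein, followed with 109 against 17.0 CPM (ratio 6.43, 5.74 to 7.20). Nkd2, an intracellular inhibitor that acts in Wnt signalling, had 81.2 against 13.2 CPM (ratio 6.14), and the neurotrophin Bdnf 55.9 against 9.16 CPM (ratio 6.10). Grem1, a secreted BMP antagonist, had 24.4 against 4.34 CPM (ratio 5.62), and Plch1, a phospholipase C, 32.1 against 5.91 CPM (ratio 5.43). Another neurotrophin, Ntf3, was at a ratio of 2.51 and the guidance factor Ntn1 at 23.2 against 6.42 CPM. Fap, C1qtnf3, Nkd2, Bdnf, Grem1, Plch1 and Ntn1 were under 20 CPM in the other barcodes, so only a higher call was open to them. The remaining genes of the 25 largest ratios ran from Npepl1 at 4.27 to Hoxa2 at 2.31 and included Gxylt2, Plppr1, Myc, Tnfaip6, Fez1, Il17rd, Macrod2, Wisp1, Sh3gl3, Car14 and Pgm5.

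**Figure D2:**
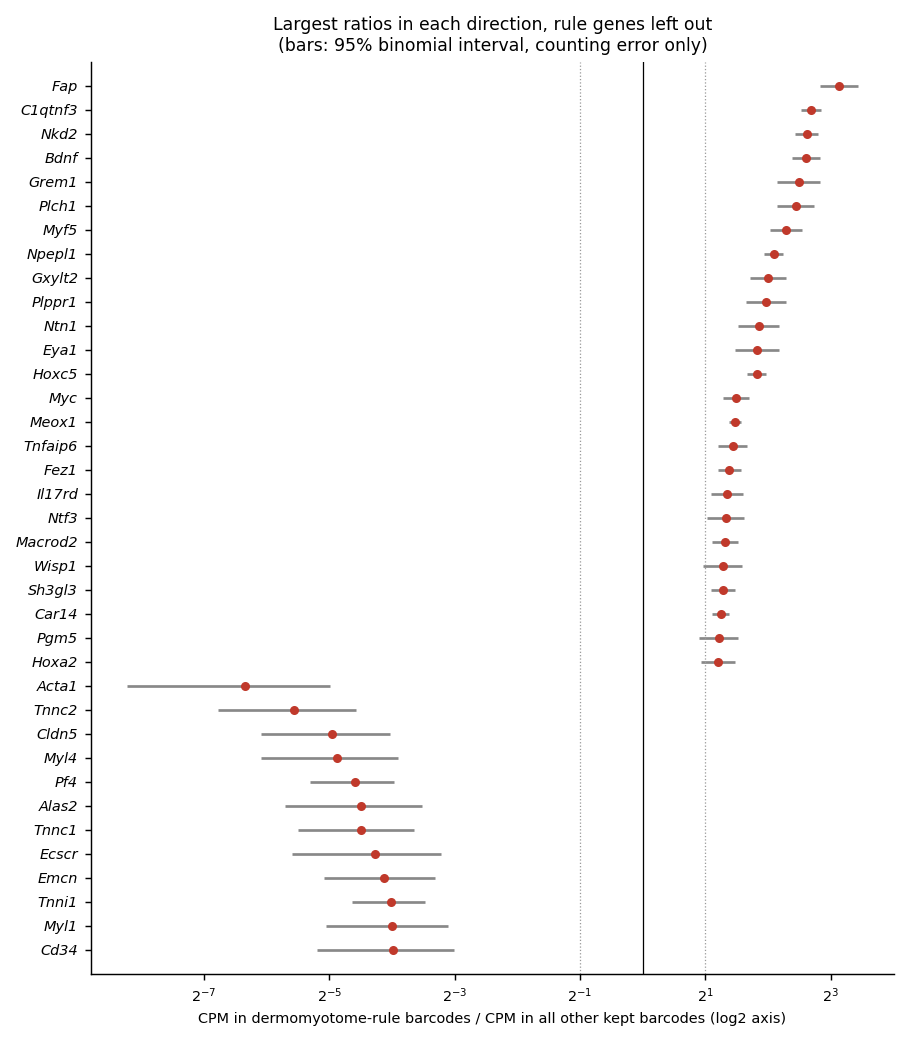
Ratio of CPM in the chosen barcodes to CPM in all other kept E10.5 barcodes (x axis, log2) for the 25 genes with the largest and the 12 with the smallest ratios among nameable genes (y axis); bars are exact 95% binomial intervals and dotted lines mark 2-fold. Fap had the highest ratio, 8.78, and Acta1 the lowest, 0.0122.

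In the myogenic list Myf5 was higher and most tested genes were lower, in cells chosen for 0 UMIs of the contractile gene Mylpf. Of 12 tested genes in the myogenic list, 1 was at least 2-fold higher, Myf5 at 40.2 against 8.21 CPM (ratio 4.90, 4.10 to 5.85), and 10 were at least 2-fold lower, several of which reached 20 CPM in the other barcodes alone, with a median log2 ratio of -3.40. Contractile genes were the lowest of all: Acta1, skeletal actin, had 0.793 against 64.8 CPM and Tnnc2, fast troponin C, 1.59 against 74.8 CPM. The zero criterion, which bars Mylpf, bore on these values. Without it the ratio of Tnnc2 was 0.869 in place of 0.0212 and the ratio of Acta1 0.305 in place of 0.0122, while the ratio of Myf5 was 7.24. At least 2 of Myog, Myod1 and Acta1 were seen in 9 of the 603 barcodes.

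Signalling genes were mostly within 2-fold. In the FGF list, 3 of 5 tested genes passed 2-fold upward and 0 downward: the feedback inhibitors Il17rd (34.1 against 13.3 CPM), Spry2 (ratio 2.30) and Spry1 (39.4 against 18.7). The hedgehog list had 2 of 5 higher, the co-receptors Cdon (21.4 against 9.66 CPM) and Gas1 (320 against 153), and 0 lower, while the receptor and target Ptch1 was at 16.1 against 28.2. The BMP list had 1 of 8 higher, Grem1, and 2 lower, the ligand Bmp4 (13.3 against 60.6 CPM) and the pseudoreceptor Bambi (28.1 against 72.3). The Wnt list had 0 of 8 higher and 1 lower, the ligand Wnt4 (9.51 against 26.9 CPM), although Nkd2, which was not on it, was among the largest ratios. Of 7 retinoic acid genes, 0 were higher and 1 lower, the synthesising enzyme Aldh1a2 (18.8 against 69.7 CPM). None of the 3 tested Notch genes reached 2-fold. Bmp4, Wnt4 and Aldh1a2 reached 20 CPM in the other barcodes alone, so only a lower call was open to them. Il17rd, Spry1, Cdon and Grem1 reached it in the chosen barcodes alone, so only a higher call was open to those. Without the zero criterion the ratio of Spry2 was 1.95 and that of Gas1 1.99, both just under 2-fold.

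Adhesion, dermal and cell cycle lists showed few differences, beside shares of 0.738% higher and 3.03% lower over all 5553 tested genes. Of 11 adhesion and matrix genes, 1 was higher, the ephrin receptor Epha3 (72.1 against 34.8 CPM), and 1 lower, Cdh6 (4.36 against 20.4). Cdh6 reached 20 CPM in the other barcodes alone, so it could not have been called higher. The ratio of Epha3 was 1.98 with at least 3 markers, and N-cadherin (Cdh2) stood at 60.8 against 56.2 CPM. Of 10 dermal and mesenchymal genes, 0 were higher and 2 lower, Prrx2 (21.4 against 57.0 CPM) and Ebf1 (25.4 against 71.4), and the dermal factor Twist2 was at 42.2 against 51.9 CPM. None of 16 S phase genes or 19 G2/M genes reached 2-fold in either direction, with median log2 ratios of 0.06 and 0.21. Of 6 cell cycle inhibitors 1 was higher, Gas1, and 1 lower, the cyclin-dependent kinase inhibitor Cdkn1c, at 574 CPM against 1165 CPM in the others. Without the zero criterion, which bars Mylpf, the ratio of Cdkn1c was 0.890 in place of 0.493.

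Genes of the Hox clusters, which mark position along the body axis, differed by paralog group. Of 6 tested anterior genes, 3 were at least 2-fold higher, Hoxc5 (112 against 31.7 CPM), Hoxa2 (ratio 2.31) and Hoxc4 (67.0 against 31.6), and 0 lower. Of 11 tested central and posterior genes, 0 were higher and 3 lower, Hoxd9 (13.7 against 38.4 CPM), Hoxb6 (9.71 against 23.5) and Hoxb9 (24.4 against 51.0). Hoxd9 and Hoxb6 reached 20 CPM in the other barcodes alone, so they could not have been called higher. Hoxa2 reached it in the chosen barcodes alone, so it could not have been called lower. Some of these calls lay near the threshold: without the zero criterion the ratio of Hoxa2 was 1.99, that of Hoxb6 0.549 and that of Hoxb9 0.598, and with at least 3 markers the ratio of Hoxc4 was 1.95. Summed over the genes of a group, paralog group 5 stood at 192 CPM in the chosen barcodes, 113 in sclerotome, 103 in muscle and 93.2 in all others. Group 9 stood at 168 CPM in the chosen barcodes, 211 in sclerotome, 164 in muscle and 259 in all others, and group 10 at 47.2 against 85.8 CPM in all others. Groups 4 to 8 were thus higher and groups 9 and 10 lower than in the other kept barcodes.

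**Figure D3:**
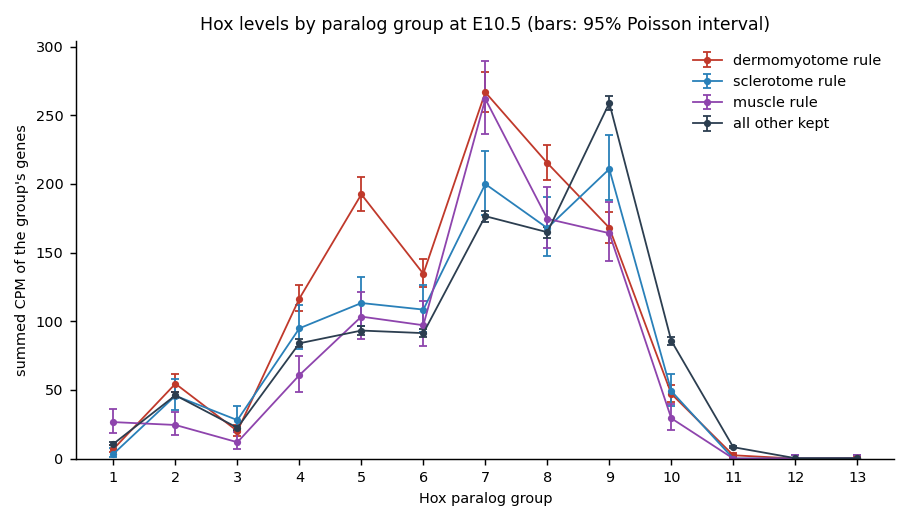
Summed CPM (y axis, linear) of the genes of each Hox paralog group (x axis) in the chosen barcodes, the sclerotome and muscle barcodes and all other kept E10.5 barcodes; bars are exact 95% Poisson intervals. Among the sets shown, the chosen barcodes had the highest level of group 5 (192 CPM), and all other kept barcodes the highest level of group 9 (259 CPM).

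Many marker genes of other cell types reached 20 CPM in the other barcodes alone, so their lists are given by summed level. The endothelial list summed to 28.5 CPM in the chosen barcodes and 270 in all others, the lateral plate and limb list to 48.2 and 206, and the surface ectoderm list to 56.3 and 203. Tek and Tie1 of endothelium, Sox1, Olig2, Nkx6-1 and Neurog1 of the neural tube, and Ptprc, Csf1r, Lyz2, C1qb, Cx3cr1 and Aif1 of leukocytes were at 0 UMIs. The list of intermediate mesoderm and gonad summed to 67.8 CPM in the chosen barcodes, 18.4 in sclerotome, 48.2 in muscle and 177 in all others. Within it Wt1 was at 9.71 against 54.1 CPM in all others, while Osr1 stood at a ratio of 0.835 and Emx2 at 0.656. The summed level of the neural list was 122 CPM, against 18.4 in sclerotome, 426 in muscle and 1349 in neural barcodes, and that of the erythroid list was 1478 CPM, against 224 in sclerotome and 6691 in muscle. In 1 chosen barcode at least 10% of UMIs were haemoglobin, and 3 held 2 or more endothelial markers. With the erythroid barcodes taken out of the reference alone, the ratio of the embryonic globin Hba-x was 5.75, and with that 1 barcode taken out as well it was 0.875 (0.746 to 1.02). The part of such RNA in the results was not tested.

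The 176 sclerotome barcodes, whose rule bars Dmrt2 and Pax3, are the nearest somite derivative. Of 5523 genes compared with them, 120 (2.17%) had a ratio of 2 or more and 117 (2.12%) a ratio of 0.5 or less. Bdnf was at 55.9 against 4.78 CPM (ratio 11.7, 5.60 to 29.4). Celf2, Ptn, C1qtnf3, Igf1, Tubb2b, Npepl1 and Igfbp5 completed the 8 largest ratios. The lowest were Pcp4 (2.97 against 231 CPM), Foxd1, Lum, Col9a1, Cxcl12, Ramp2, Foxc1 and Sox9 (27.9 against 201 CPM), among them the cartilage regulator Sox9 and the cartilage collagen Col9a1. Meox1 was lower than in sclerotome, at 257 against 349 CPM (ratio 0.738, 0.665 to 0.819), and so was Meox2 (ratio 0.225). Of 11 sclerotome and tendon genes 8 were at least 2-fold lower and 0 higher.

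Against the 159 muscle barcodes, 312 of 5812 genes (5.37%) were higher by 2-fold or more and 570 (9.81%) lower, with a median log2 ratio of 0.10. Nkd2 had the largest ratio, at 81.2 against 4.89 CPM (16.6, 7.99 to 41.6), followed by Bdnf (7.27), Fez1, Serpinf1, Igf1, Prrx1, Sdc1 and Fam212a. Shared with muscle was C1qtnf3, at 109 against 119 CPM (ratio 0.916, 0.770 to 1.09). Myf5 was lower than in muscle, at 40.2 against 111 CPM. Of 16 S phase genes 10 were at least 2-fold higher than in muscle and 0 lower, and of 19 G2/M genes 10 and 0. Cdkn1c, an inhibitor of the cell cycle, was at 574 against 8089 CPM (ratio 0.0710). Of the 67 neural barcodes, 23.9% held a Pax3 UMI and 5.97% a Pax7 UMI, and their rule bars Tcf15 and Dmrt2. Against them 280 of 5996 genes were higher (4.67%) and 536 lower (8.94%). There Meox1 was at 257 against 16.3 CPM and Itm2a at 371 against 30.3 CPM, and the neural regulators Hes5, Neurog2 and Sox21 had 1 or 2 UMIs in all chosen barcodes.

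When all kept barcodes of the library were clustered without the 9 rule genes, 476 of the 603 chosen barcodes (78.9%) fell into 1 of 20 clusters, cluster 4. They made up 63.7% of its 747 barcodes. The barcodes of that cluster that the rule left out had 277 CPM of Meox1 and 78.6 CPM of Myf5, against 277 and 48.0 CPM in the chosen ones. Of the 32 barcodes with all 5 markers, 31 lay there. Of the rest, 35 lay in cluster 2, a shallow cluster with a median of 2682 UMIs, 23 in cluster 5, which was led by Wnt2, Pitx1 and Irx3, and 19 in cluster 0, which was led by Pax1 and Pax9.

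**Figure D4:**
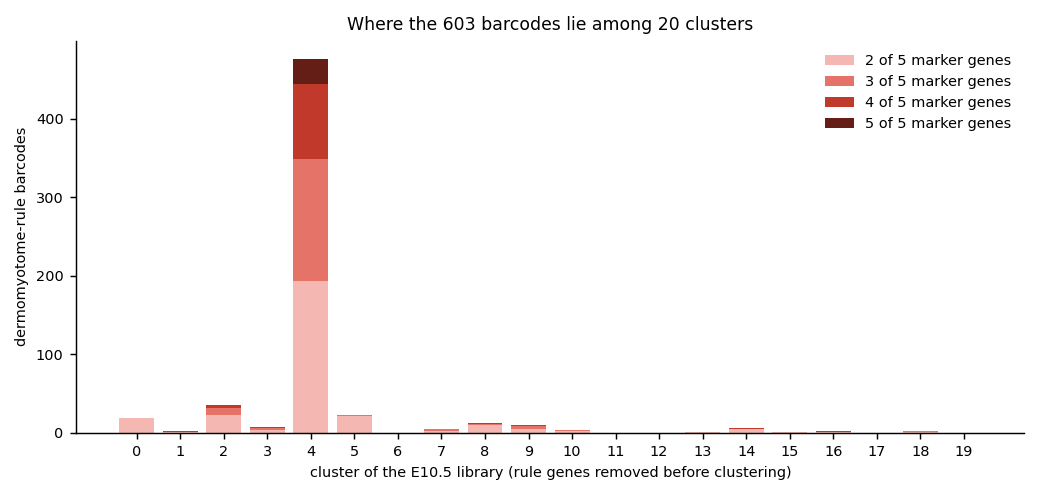
Number of chosen barcodes (y axis, from 0) in each of 20 clusters of the E10.5 library made without the rule genes (x axis); shades give how many of the 5 marker genes a barcode held. Cluster 4 held 476 of 603.

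The chosen barcodes outside cluster 4 differed from those inside it. The 23 in cluster 5 had 10.4 CPM of C1qtnf3 and 88.2 of Pitx1, a hindlimb gene, against 135 and 2.03 CPM in cluster 4. Neuronal RNA was also uneven: Stmn2 stood at 2.29 CPM in the chosen barcodes of cluster 4 and 115 CPM in those outside it, and Tubb3 at 11.2 against 155 CPM. For this reason differences among the chosen barcodes are given within cluster 4 below, unless all 603 are named. A barcode without a UMI of a marker had to hold 2 others to be chosen, so the presence of 1 marker is tied to that of the rest, and an absent UMI is not absent expression.

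En1 divided cluster 4 into 141 barcodes with a UMI and 335 without. Those with En1 had less Id3, an inhibitor of basic helix-loop-helix factors and a BMP target, at 151 against 647 CPM (ratio 0.233, 0.198 to 0.273), and less Id2, at 135 against 441 CPM (ratio 0.307, 0.258 to 0.363). Myf5 was at a ratio of 0.227 (0.127 to 0.380), Eya1 at 7.02 against 28.9 CPM and Grem1 at 9.66 against 36.1 CPM. Epha3, Asb4, Nr2f1 and Flrt3 were also lower, at ratios of 0.182 to 0.259. Higher with En1 were Limch1 (93.1 against 28.2 CPM), Rgmb, a BMP co-receptor (96.6 against 40.4), Nkd2 (148 against 68.3), Fez1 (118 against 52.9) and Pax7 (32.5 against 10.4). Over all 603 barcodes Stmn2 and Tubb3 were also higher with En1 (ratios 3.91 and 3.78), but within cluster 4 their ratios were 0.702 and 0.921.

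Pax3 divided the same cluster the other way for several of these genes. The 2 splits are not independent, since both genes chose the cells. Over all 603 barcodes, En1 was seen in 23.2% of those with Pax3 and 35.2% of those without. How much the rule adds to the opposite directions was not tested. The 336 barcodes with Pax3 had Id3 at 617 CPM against 206 in the 140 without (ratio 2.99, 2.60 to 3.45) and Id2 at 419 against 177 CPM (ratio 2.37). Eya1 was at 30.5 against 1.84 CPM, the second value being 2 UMIs (ratio 16.6, 4.45 to 139), and Grem1 at 36.1 against 8.29 CPM (ratio 4.36, 2.21 to 9.80). Tropomyosin 1 (Tpm1) was at 739 against 253 CPM and Flrt3 at 124 against 31.3 CPM. Lower with Pax3 were Emx2, a homeobox gene also used in the urogenital system (8.77 against 44.2 CPM), Nkd2 (63.5 against 165), the dermal factor Twist2 (ratio 0.497) and Igf1 (88.7 against 171). Pax7 did not follow, at 16.8 against 16.6 CPM. Median depth over all 603 was 7927 UMIs with Pax3 and 7380.5 without.

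Myf5 marked barcodes with the first muscle transcripts. Within cluster 4 the 107 barcodes with Myf5 had cardiac actin (Actc1) at 76.2 against 8.73 CPM (ratio 8.73, 5.51 to 14.2), myogenin (Myog) at 64.7 against 16.4 CPM (ratio 3.93) and desmin (Des) at 58.4 against 17.8 CPM (ratio 3.29). Pdgfa, a ligand that the myotome supplies to neighbouring sclerotome, was at 61.6 against 14.4 CPM, and the cell cycle inhibitor Cdkn1a at 74.1 against 22.2 CPM. Nkd2 (32.4 against 110 CPM), Bdnf (27.1 against 75.2), Twist1 (40.7 against 109) and Prrx1 (34.4 against 79.6) were lower. In barcodes with and without Dmrt2, Eya1 was at 11.9 against 43.8 CPM, Plk2 at 47.5 against 158 CPM, Flrt3 at 57.0 against 180 CPM and Cdkn1a at 20.7 against 62.6 CPM. Nkd2 was at 113 against 49.8 CPM and Myf5 at 33.7 against 76.2 CPM.

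**Figure D5:**
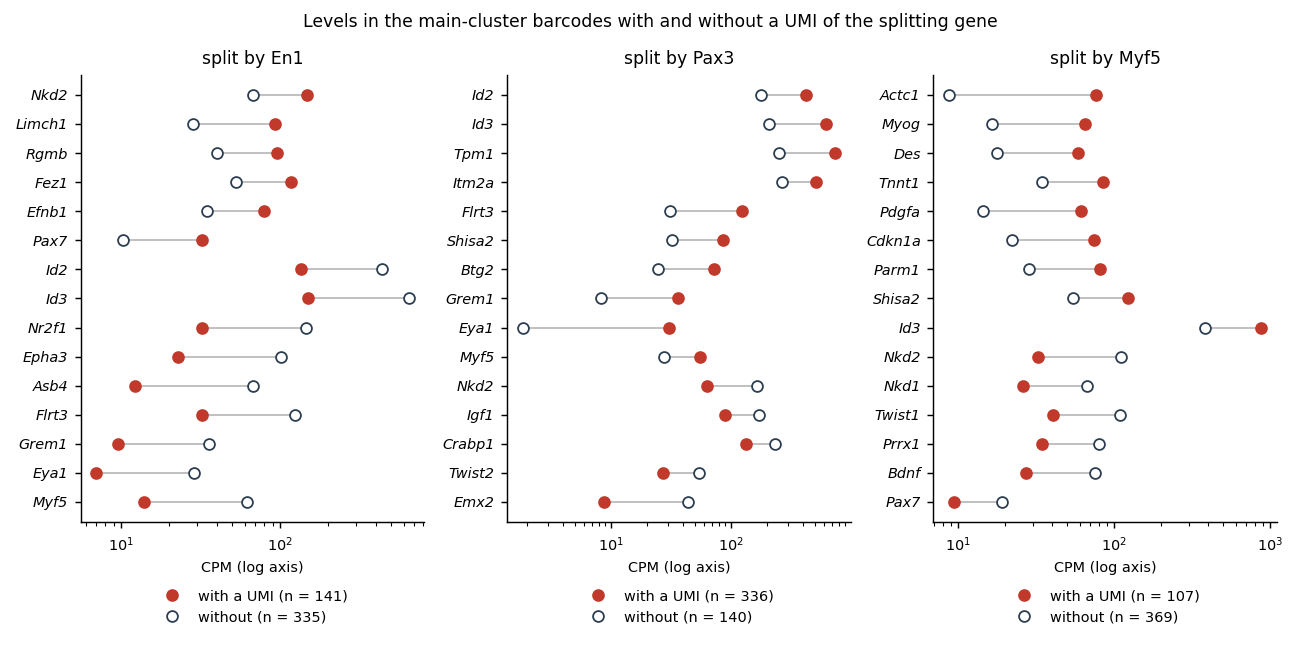
Level in CPM (x axis, log) of 15 genes per panel in the chosen barcodes of cluster 4 with a UMI (filled) and without a UMI (open) of En1, Pax3 or Myf5; genes are from the named-gene rule and the regulators followed throughout. Id3 was at 151 against 647 CPM by En1, 617 against 206 by Pax3, and 877 against 383 by Myf5.

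Pax7 and Lbx1 marked small subsets. The 58 barcodes with Pax7 in cluster 4 had Myf5 at 23.9 against 51.5 CPM, Id3 at 273 against 537 CPM and C1qtnf3 at 205 against 125 CPM. Lbx1, the homeobox gene of muscle precursors that migrate into limb and tongue, was seen in only 12 of the 603 barcodes. All 12 held Pax3 and Tcf15, 1 held Dmrt2 and 0 held En1 or Wnt16. Over all 603 barcodes, Hoxa10 in these 12 stood at 102 CPM (12 UMIs) against 7.71 CPM, Hoxa11 at 51.2 CPM (6 UMIs) against 0.609 CPM, and Met, the receptor that releases migrating precursors, at 51.2 CPM (6 UMIs) against 6.29 CPM. Met was detected in 5 of the 12 and in 4.74% of the barcodes without Lbx1. Of the 12, 7 lay in cluster 4. There Hoxa10 was at a ratio of 18.1 (5.23 to 51.2) on 5 UMIs, whereas Met had 2 UMIs (ratio 4.93, 0.566 to 19.8) and Hoxa11 1 UMI with Lbx1 and 1 without (ratio interval 0.785 to 4840), so neither of the latter differences was larger than its counting error within the cluster.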

How the data were processed

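Droplet single-cell RNA-seq (10x Chromium 3′ v2) was deposited by the authors as raw UMI counts per gene and barcode. Reads were processed with Cell Ranger 3.0.2 on mm10, per the submitters' processing notes, and the sources used here do not state how cells were called. Cells were chosen by the rule stated in the report. Erythroid barcodes had at least 10% haemoglobin UMIs. Sclerotome barcodes held at least 2 of Pax1, Pax9 and Nkx3-2, and 0 UMIs of Dmrt2, Pax3, Mylpf and Sox2. Muscle barcodes held at least 2 of Mylpf, Myog, Myod1 and Acta1, and 0 of Pax1, Pax9 and Sox2. Neural barcodes held at least 2 of Sox2, Sox1, Sox3 and Pax6, and 0 of Tcf15, Dmrt2 and Mylpf. Endothelial barcodes held at least 2 of Pecam1, Cdh5, Kdr, Emcn and Cldn5, and 0 of Dmrt2, Mylpf and Sox2. The chosen barcodes were taken out of each group. The members and gene lists were chosen with earlier results of these data known. UMIs were summed and scaled to CPM, with exact Poisson intervals for levels, exact conditional binomial intervals for ratios and Clopper-Pearson intervals for shares. A sum of 0 was set to 3 counts, and its ratio is a bound. The 6 libraries held 37606947 to 52146419 UMIs in all deposited barcodes. Genes with at least 20 CPM in either sum were compared. The text names the 25 largest and 12 smallest ratios (rule, mitochondrial, ribosomal protein, haemoglobin, Xist and clone-type genes left out), up to 4 per list, 8 in each direction per like cell type (at least 50 CPM), and fixed regulators, and certain genes are not reported here; others were chosen after their values were seen. Clustering used scanpy 1.11.5 (2000 variable genes, 30 components, 15 neighbours, resolution 1, seed 0). Calculations were tested on simulated data. Alternatives changed barcode filters, doublet removal, the rule, thinning, weighting, reference, centring and the CPM minimum.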

Additional observations from a re-analysis of the deposited data

How the results depend on the processing

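The number of barcodes chosen was 601 with at least 1000 genes, 595 with at most 5% mitochondrial UMIs, 563 after removal of the highest doublet scores and 810 without the zero criterion. It was 318 with at least 3 markers, 362 after thinning to 3000 UMIs and, in alternatives chosen after seeing the data, 329 when Tcf15 was not counted and 476 in cluster 4 alone. For genes at least 2-fold higher or lower, a minimum of 50 CPM gave 20 and 54, by construction from fewer genes, and cluster 4 alone gave 62 higher and 206 lower. Other settings gave 41 to 58 higher and 145 to 205 lower. Apart from the 50 CPM minimum, between 34 and 41 of the 41 higher genes were also called: without the zero criterion 34 were, and Eya1, Gas1, Hoxa2, Sema3a, Spry2, Wisp1 and Zfhx3 were not. The ratio of Lbx1 reversed to 0.470 (0.0116 to 2.81) with at least 3 markers and to 0.454 without Tcf15. Every chosen barcode with Lbx1 held Pax3 and Tcf15, and none held En1 or Wnt16. Lbx1 was seen in 0.314% of chosen barcodes with at least 3 markers and 3.86% of those with exactly 2. Both settings therefore left out most Lbx1 barcodes by construction. With erythroid barcodes taken out of the reference, the ratio of Alas2 was 3.70, the ratio of Hbb-bh1 4.64 and the ratio of Hba-x 5.75. When the 1 chosen barcode with at least 10% haemoglobin was removed too, an alternative chosen after seeing the data, these were 0.465, 0.718 and 0.875, with 602 barcodes chosen. No paired analysis was possible because each group was 1 library and the result comes from no test. One library, 603 barcodes and a median of 7714 UMIs limit what can be seen of genes at a few CPM.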

Other observations

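Igf1, an embryonic growth factor, was at 114 CPM in the chosen barcodes, 15.7 in sclerotome and 25.8 in muscle. Fgf8, which the dermomyotome-derived myotome is known to express, was at 9.51 CPM against 2.74 in all other kept barcodes. Emx2 stood at 25.2 CPM in all chosen barcodes, 145 CPM in the 23 of cluster 5, and 1.36 CPM in sclerotome.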
